A study of Mus musculus with 6 samples.

Results

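The genes described here encode the killing machinery and inflammatory chemokines of activated lymphocytes: the granzymes Gzma, Gzmb and Gzmk, perforin (Prf1), Fas ligand (Fasl), the granule membrane protein gene Nkg7 and the chemokine genes Ccl3, Ccl4 and Ccl5. They were followed as accessible chromatin in regulatory T cells (Tregs) by ATAC-seq, which tags DNA wherever the transposase Tn5 can reach it. All peaks in or within 10 kb of these 9 genes (mm10, RefSeq gene spans) were taken from the 6 peak lists and merged where they overlapped, which gave 19 regions of 64817 in all, for 9 of 21896 protein-coding genes. There were 3 KO libraries, from il33-/- mice on a C57BL6 background that lack the cytokine interleukin-33, and 3 WT libraries from C57BL6 mice. All mice carried B16.F10 melanoma, a transplantable mouse tumour line, for 14 days after 300000 cells had been injected under the skin, and CD4+CD25+GITR+ Tregs were sorted from the draining lymph nodes. The sources used here do not say whether the libraries came from single or separate mice, so each p-value reflects library-to-library spread, which may be technical.

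Cytotoxic lymphocytes store granzymes, which are serine proteases, and perforin, which forms pores in the target membrane, in granules that are released onto a target cell. Fas ligand kills through the death receptor Fas. CCL3, CCL4 and CCL5 are chemokines that draw in other leukocytes. Activated Tregs can also make granzyme B, and in mice granzyme B and perforin have been linked to suppression of other cells by tumour Tregs.

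The KO lists rested on 7.75 ± 2.82 M tags (M stands for mega; replicates 1, 2 and 4 had 8.21, 4.72 and 10.3 M) and the WT lists on 13.7 ± 1.29 M (SD, n = 3 each; 13.1, 12.9 and 15.2 M in replicates 2, 4 and 6). The deepest KO library was shallower than the shallowest WT library, so in any count of peaks genotype cannot be told apart from depth. The 5 Treg markers checked, Foxp3, Ctla4, Ikzf2 and the sorted antigens Il2ra (CD25) and Tnfrsf18 (GITR), all had peaks, 38 to 40 per KO and 50 to 55 per WT library in sum. Of the 7 CD8 T and NK cell markers, 6 had a region and Ncr1 had none, and their peaks summed to 8, 4 and 7 in the KO and 10 in each WT library. Klrd1 and Klrk1 shared their only region, and its peaks were counted once for each of these genes. CD8 T and NK cells use the genes described here, and their part in the results was not tested. In a bulk library a lower peak can mean fewer cells with the site open or fewer open copies per cell, which cannot be told apart.

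The gene start, taken from RefSeq, lay inside a called region at 4 of the 7 genes whose start is given there, Gzma, Gzmb, Prf1 and Fasl. Their promoter windows (RefSeq, GRCm38.p6, the assembly behind mm10) run from 250 bases before to 50 after the gene start. They are printed because, of these 7 genes, these are the ones whose gene start lay in a called region. The Ccl3 window also overlapped a region, called in WT replicate 4 alone, but that region did not reach the gene start. No start was given for Ccl4 and Ccl5, so whether a called region covered it was not checked. Sequences run 5′ to 3′ on the strand of the gene, and capitals mark matches to the motifs given after them.
Gzmb (chr14:56262285-56262584, minus strand): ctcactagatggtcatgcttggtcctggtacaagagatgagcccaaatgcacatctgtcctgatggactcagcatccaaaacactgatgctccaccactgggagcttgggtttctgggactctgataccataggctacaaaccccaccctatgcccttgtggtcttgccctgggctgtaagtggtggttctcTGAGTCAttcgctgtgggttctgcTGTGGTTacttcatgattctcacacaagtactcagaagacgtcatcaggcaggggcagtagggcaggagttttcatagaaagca
Prf1 (chr10:61297586-61297885, plus strand): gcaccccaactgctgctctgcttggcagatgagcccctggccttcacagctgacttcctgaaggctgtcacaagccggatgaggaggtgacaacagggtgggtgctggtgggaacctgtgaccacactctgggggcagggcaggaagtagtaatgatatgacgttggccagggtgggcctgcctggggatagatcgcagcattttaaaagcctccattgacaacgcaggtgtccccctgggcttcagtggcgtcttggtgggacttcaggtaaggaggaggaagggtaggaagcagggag
Fasl (chr1:161788446-161788745, minus strand): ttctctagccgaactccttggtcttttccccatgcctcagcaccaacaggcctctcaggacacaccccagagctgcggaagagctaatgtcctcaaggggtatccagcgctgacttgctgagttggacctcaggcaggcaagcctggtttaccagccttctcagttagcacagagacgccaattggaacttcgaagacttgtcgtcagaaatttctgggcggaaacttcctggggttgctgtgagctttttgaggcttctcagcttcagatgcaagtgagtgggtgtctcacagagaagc
Gzma (chr13:113100932-113101231, minus strand): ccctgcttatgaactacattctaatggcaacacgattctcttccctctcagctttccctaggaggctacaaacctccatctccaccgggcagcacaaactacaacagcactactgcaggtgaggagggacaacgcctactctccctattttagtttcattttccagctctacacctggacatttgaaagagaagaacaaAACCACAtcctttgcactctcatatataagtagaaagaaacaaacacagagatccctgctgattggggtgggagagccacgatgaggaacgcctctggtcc

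The motifs searched on both strands were T-box (AGGTGTGA), RUNX (TGTGGTT), AP-1 (TGANTCA), CRE (TGACGTCA), ETS (CCGGAAGT and AGAGGAAGT), NF-kB (GGG, 2 bases of any kind, then TTTCC) and NFAT with AP-1 (GGAAA, 4 bases of any kind, then the AP-1 letters), and a TATA box (TATAAA) was searched on the gene's strand. The Gzmb promoter held an AP-1 match from base -58 to -52 and a RUNX match from base -34 to -28, counted from the gene start at 0. The Gzma promoter held a RUNX match on the opposite strand from base -51 to -45. The printed Prf1 and Fasl windows held none of these letters. Of all 32851 RefSeq promoters, 7.81% held the AP-1 letters and 5.27% the RUNX letters. The shares were 1.79% for CRE, 3.89% and 1.0% for the ETS forms, 1.63% for NF-kB, 0.0548% for NFAT with AP-1 and 8.32% for the TATA box. Promoter windows were found for 7 of the 9 genes. Among the others, Nkg7 held a T-box match, as 1.28% of all promoters did, and Gzmk and Ccl3 held no match.

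**Figure D1:**
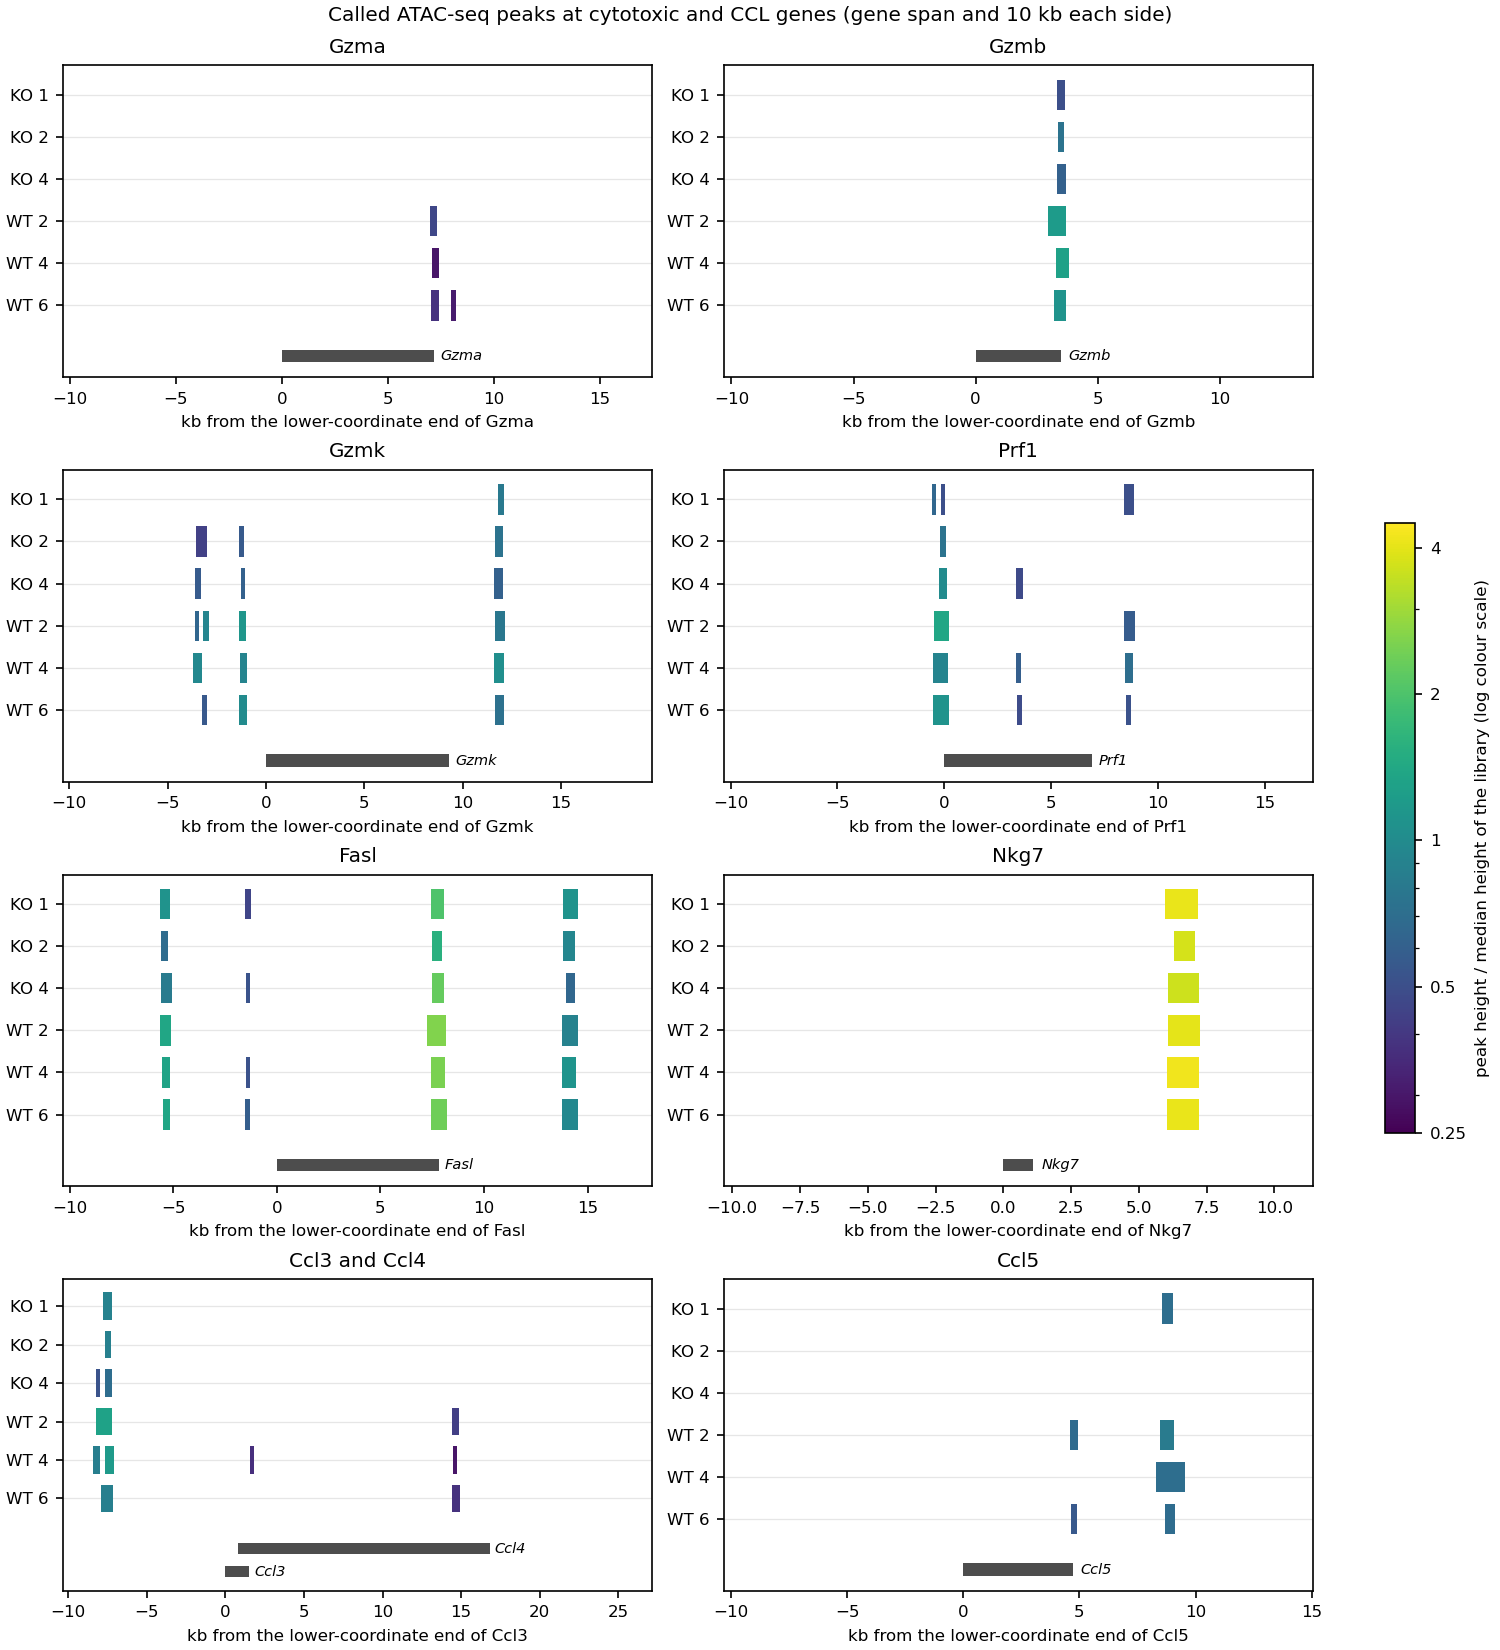
Maps of the called peaks at the 9 genes. Each row is a library (KO replicates 1, 2 and 4 above WT replicates 2, 4 and 6), the x axis is distance in kb from the lower-coordinate end of the gene, grey bars are gene spans, and colour is peak height divided by the median height of the library. Gzmb and Fasl had a peak at the gene start in all 6 libraries, Gzma had peaks in WT lists only, and Nkg7 had none at the gene itself.

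Peak height is the authors' pileup, the number of extended tags over the summit. It was divided by the median height of the same list, which was 20, 16 and 23 tags in KO replicates 1, 2 and 4 and 28, 27 and 29 tags in WT replicates 2, 4 and 6, so that 1 is a middling peak of its library. This scaling lowered nearly everything in KO: over the 29419 regions called in all 6 libraries the median log2 difference, KO minus WT, was -0.32, and 94.7% of them were below 0. With limma on log2 scaled height and Benjamini-Hochberg adjustment over all 29419 regions, 34.6% were lower and 0.0374% higher in KO at an adjusted p under 0.05. Scaling by the median height of the shared regions themselves brought the median difference to 0.03, with 0.323% lower and 2.1% higher in KO, and scaling by depth (tags per M tags of the library) brought it to 0.05, with 0.0034% and 0.0068%. Differences are therefore given under the first scaling, with the shared-region value beside them, and are read against these medians and percentages.

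Of the 19 regions, 8 were called in all 6 libraries (42.1%, against 45.4% of all regions), 4 in all WT and some KO libraries (21.1%, against 17.1%), 2 in all WT and no KO library (10.5%, against 4.66%), 3 in some but not all WT and no KO libraries (15.8%, against 20.9%), and 2 in some libraries of each genotype. Set against the 14 member regions that every WT list held, 2 were missing from all KO lists, as were 6.95% of all 43512 regions of that kind. None was called in KO libraries alone, as were 3.17% of all regions, and in particular none in all KO and no WT libraries, as were 0.0185%. Without KO replicate 1, regions called in all WT and no KO libraries numbered 4. The pattern is easier to meet with fewer KO libraries, and its share of all regions was not counted in that setting. Among the 8 shared regions, 3 were lower and 0 higher in KO under the first scaling, a share near the 34.6% of all regions, and none was called in either direction under the other 2 scalings. Without WT replicate 4 the count was 1, and the share of all regions called lower was 10.1%. Their median log2 difference was -0.41, beside -0.32 for all shared regions, and with shared-region scaling it was -0.06, beside 0.03.

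Gzmb, which encodes the granzyme that triggers caspase-dependent death, showed the lowest value of the 8 (chromosome 14, gene span 56258836 to 56262334). Its single region, 873 bp long at 56261785 to 56262657, covered the gene start. The peak was 10, 12 and 14 tags high in KO replicates 1, 2 and 4, and 34, 35 and 32 tags in WT replicates 2, 4 and 6. Scaled to each list this was 0.50, 0.750 and 0.609 in KO (mean 0.620 ± 0.125) and 1.21, 1.30 and 1.10 in WT (1.2 ± 0.0968; SD, n = 3 each), so every KO library lay below every WT library. This was so at 3 of the 8 member regions, and at 48.2% of all shared regions, under this scaling, and the opposite was so at none of the 8 and at 0.197% of all.

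The log2 difference at Gzmb was -0.98 ± 0.22 (SE; limma adjusted p = 0.00228), 0.508-fold, which is -0.66 from the median of all shared regions. With shared-region scaling it was -0.63 ± 0.22 and no longer passed (limma adjusted p = 0.110), while all KO values still lay below all WT values, as at 6.9% of all shared regions and at no other member region. In that scaling 0.724% of all shared regions had a lower difference. Per M tags the heights were 1.22, 2.54 and 1.36 in KO and 2.60, 2.71 and 2.1 in WT (difference -0.61 ± 0.26, limma adjusted p = 0.999), so that KO replicate 2 fell within the WT range. In this scaling 0 of the 8 member regions stood apart, where 3.34% of all shared regions had all KO below all WT libraries and 4.7% had all KO above them. The summit stood within 43 bp in all libraries, from base -27 to base 16 of the gene start in KO and from -21 to -6 in WT, on the gene side of the AP-1 and RUNX letters printed above. Peaks were 323, 250 and 370 bp long in KO and 734, 513 and 485 bp in WT. KO lists had shorter peaks in general, with medians of 434, 409 and 449 bp against 474, 460 and 464 bp in WT. How many of all regions had lengths that stood apart in this way was not counted.

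Within its own list the Gzmb peak ranked at height percentiles 14.7 to 34.8 in KO and 55.0 to 61.4 in WT. A rank depends on how many weak peaks a list holds, so it is not free of depth. The share of all regions whose ranks stood apart in this way was not counted. The height of the Gzmb peak over the local background, the authors' fold enrichment, was 5.86 to 8.33 in KO and 9.82 to 11.18 in WT. On that measure its log2 difference was -0.60 ± 0.14 (SE; limma adjusted p = 0.0351). The median of all shared regions was -0.09 there, and 4.33% were lower in KO at an adjusted p under 0.05.

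**Figure D2:**
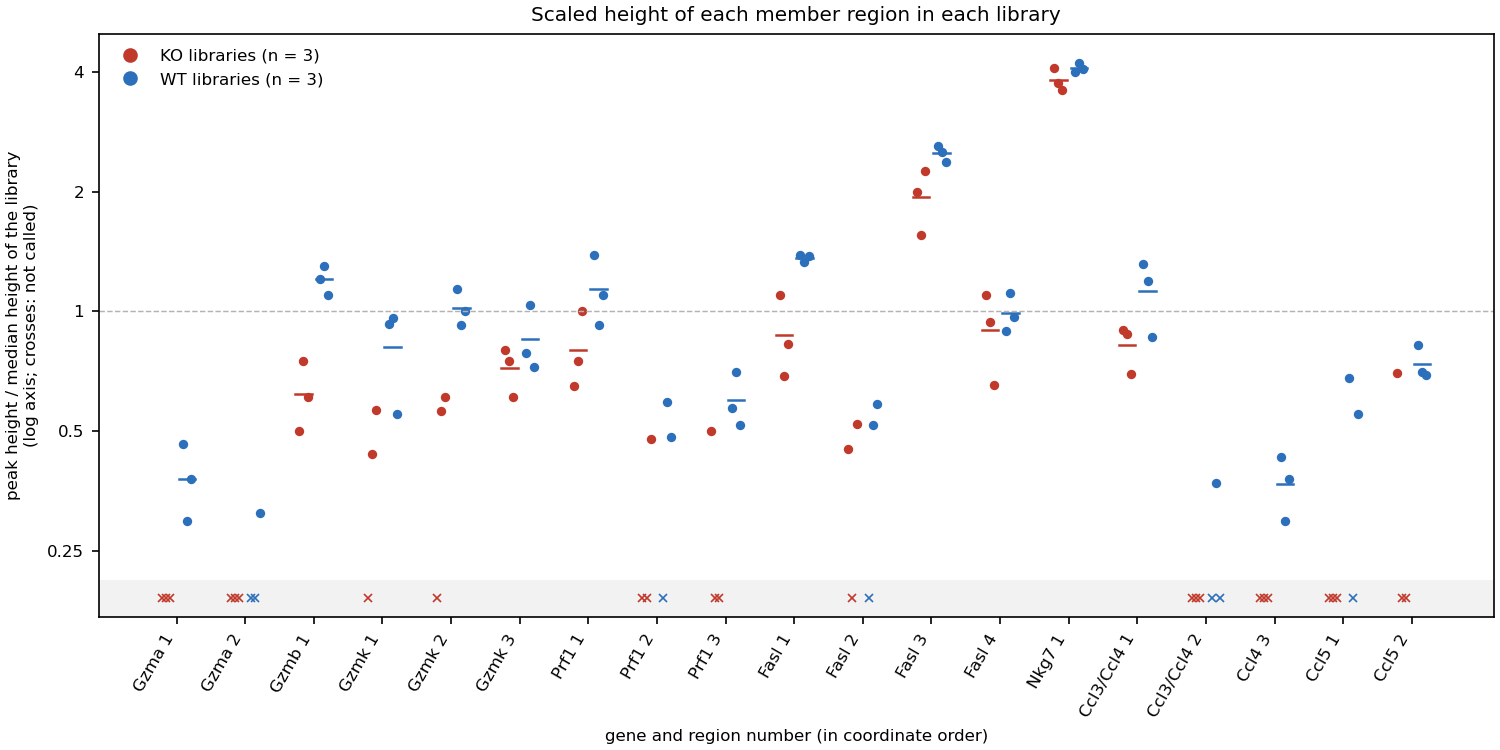
Scaled height (peak height over the median height of the library, log axis) of the 19 regions in 3 KO (red) and 3 WT (blue) libraries, with lines at means where all 3 libraries of a genotype called the region and crosses in the grey band where a library did not. Regions of a gene are numbered in coordinate order. At Gzmb all KO points lie at 0.750 or below and all WT points at 1.10 or above.

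Prf1, which encodes the pore that lets granzymes into the target, had 3 regions (chromosome 10, 61297751 to 61304684). The promoter region at 61297162 to 61297967 was called in all 6 libraries, at scaled heights of 0.650, 0.750 and 1.0 in KO (0.800 ± 0.180) and 1.39, 0.926 and 1.10 in WT (1.14 ± 0.236; SD, n = 3 each). The groups overlapped, because KO replicate 4 stood above WT replicate 4. The difference was -0.52 ± 0.22 (SE; limma adjusted p = 0.0617), and -0.17 ± 0.22 with shared-region scaling (limma adjusted p = 0.763). Without KO replicate 4 it was -0.69 and passed under the first scaling (limma adjusted p = 0.0317), where 26.1% of all regions tested were lower. Leaving out any other library gave -0.66 to -0.36 and no call (limma adjusted p = 0.0715 to 0.271).

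The Prf1 promoter summit lay between bases -165 and -158 in all WT libraries. It lay at -167 in KO replicate 2 and at -148 in KO replicate 4. KO replicate 1 had a pair of short peaks instead, with summits at -546 and -162. The peak at -546 gave the 0.650 above, and the one at -162 reached 0.50, so the fitted heights were not all from the same site. With windows of 200 bp around each summit, which parted this pair, the difference was -0.64 ± 0.23 under the first scaling (SE; limma adjusted p = 0.0309). In that setting 34.6% of all regions tested were lower. The peaks covered 277 to 415 bp in KO and 701 to 751 bp in WT, and the share of all regions that stood apart in this way was not counted. A region inside the gene at 61301109 to 61301427 was called in KO replicate 4 (0.478) and in WT replicates 4 and 6 (0.593 and 0.483). A region 1.47 kb past the gene end, at 61306153 to 61306672, was called in KO replicate 1 (0.50) and in all 3 WT libraries (0.571, 0.704 and 0.517).

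Fasl, which encodes Fas ligand, had the most regions of the list, 4, and its promoter was the tallest member promoter (chromosome 1, 161780691 to 161788495). The promoter region at 161787939 to 161788880 had scaled heights of 2.00, 1.56 and 2.26 in KO (1.94 ± 0.353) and 2.61, 2.52 and 2.38 in WT (2.5 ± 0.115; SD, n = 3 each). All KO values lay below all WT values. The difference of -0.38 ± 0.14 (SE; limma adjusted p = 0.0277) stood close to the median of all shared regions, and with shared-region scaling it was -0.03 ± 0.13 (limma adjusted p = 0.931), with overlapping groups. Its call was lost without KO replicate 2 (-0.23, limma adjusted p = 0.172), and also without WT replicate 2, 4 or 6, where the difference stayed near its size (-0.35, -0.38 and -0.42, limma adjusted p = 0.0961, 0.0922 and 0.0552).

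The other Fasl regions lay on both sides of the gene. The one 5.08 kb past the gene end, at 161775067 to 161775610, reached 1.10, 0.688 and 0.826 in KO and 1.39, 1.33 and 1.38 in WT, without overlap. Its difference was -0.68 ± 0.20 (SE; limma adjusted p = 0.0122), and -0.33 ± 0.20 with shared-region scaling (limma adjusted p = 0.408), where the groups overlapped. Without WT replicate 4 it was -0.70 (limma adjusted p = 0.0531). The region upstream of the gene start, at 161794462 to 161795221, reached 1.10, 0.938 and 0.652 in KO and 0.893, 1.11 and 0.966 in WT, and the groups overlapped (-0.17 ± 0.22, limma adjusted p = 0.525). It was above 0 with shared-region scaling (0.18 ± 0.21). A weak region 1.27 kb past the gene end, at 161779151 to 161779425, was called in KO replicates 1 and 4 (0.450 and 0.522) and in WT replicates 4 and 6 (0.519 and 0.586).

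Gzma and Gzmk, granzyme genes on the same stretch of chromosome 13, had regions of different strength. Gzma (113093824 to 113100981) encodes a trypsin-like granzyme and lies within the span of Cdc20b. Its promoter region at 113100791 to 113101246 was called in all 3 WT libraries and in no KO library, a pattern that 4.66% of all regions had. The WT peaks were among the weakest of their lists, with 13, 8 and 11 tags (scaled 0.464, 0.296 and 0.379) and height percentiles of 1.65 to 12.9. Their summits lay between bases -58 and 21 of the gene start.

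At the depth of KO replicates 1, 2 and 4, the mean WT height per M tags at Gzma would come to 6.39, 3.68 and 8.03 tags. The lowest peaks in those lists had 5, 4 and 6 tags, and 5% of peaks had no more than 8, 6 and 9 tags. The Gzma promoter was therefore near the limit of what KO lists held, and its absence from them does not show that it was closed. A second region 0.800 kb from the gene, at 113101781 to 113102062, was called in WT replicate 6 alone (0.310). With 0 peaks in each KO library and 1, 1 and 2 peaks in the WT libraries, Gzma was the single member whose KO libraries all had fewer peaks than its WT libraries (two-sided exact permutation p = 0.1, the smallest that 3 against 3 allows). The same held for 15.5% of the 16242 protein-coding genes with a peak, and the opposite, which no member showed, for 0.388%. Leaving out KO replicate 1, KO replicate 4 or WT replicate 4 brought the members with fewer peaks to 2. This pattern, too, is easier to meet with fewer libraries, and its share of all genes was not counted there.

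Gzmk (113171630 to 113180965), which encodes another trypsin-like granzyme, had no region at its start. The region before the gene start, with summits between bases -2667 and -2580, at 113183242 to 113183802, was called in all 6 libraries. It had scaled heights of 0.800, 0.750 and 0.609 in KO (0.720 ± 0.0992) and 0.786, 1.04 and 0.724 in WT (0.849 ± 0.166; SD, n = 3 each). The groups overlapped (-0.23 ± 0.23, limma adjusted p = 0.406), and the difference was above 0 with shared-region scaling (0.12 ± 0.22).

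Past the end of Gzmk lay 2 more regions, at 113170236 to 113170675 and at 113167917 to 113168716, each called in KO replicates 2 and 4 and in all 3 WT libraries. The nearer one had 9 and 14 tags in those KO libraries (scaled 0.562 and 0.609) and 32, 25 and 29 tags in WT (1.14, 0.926 and 1.0). KO replicate 1 called neither, although it was deeper than KO replicate 2. At its depth the mean WT height of the nearer region would come to 17.2 tags, and that of the farther one to 13.8 tags. For KO replicates 2 and 4 the nearer region would come to 9.9 and 21.6 tags, beside the 9 and 14 observed. The farther region had 7 and 13 tags in KO replicates 2 and 4 and 26, 26 and 16 tags in WT. As KO replicate 1 lacks them, neither region enters the height fit.

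Nkg7, whose product sits in the membrane of cytotoxic granules, had no called region at its own span (chromosome 7, 43437138 to 43438246). The only region in its window, at 43443116 to 43444388, lay 4.87 kb past the gene end and overlapped the spans of Cldnd2 and of Etfb, a gene of mitochondrial electron transfer. That region was the tallest of the 19, at 4.10, 3.75 and 3.61 in KO (3.82 ± 0.253) and 4.00, 4.22 and 4.07 in WT (4.10 ± 0.114; SD, n = 3 each), with overlapping groups. The difference was -0.10 ± 0.09 (SE; limma adjusted p = 0.359) and 0.24 ± 0.09 with shared-region scaling (limma adjusted p = 0.125), in which every KO library lay above every WT library, as at 13.7% of all shared regions. Its summits lay within 13 bp of each other in all 6 libraries.

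Ccl3 and Ccl4 lie side by side on chromosome 11 and encode the macrophage inflammatory proteins 1-alpha and 1-beta. In the RefSeq table the span of Ccl4 (83648624 to 83664683) overlaps that of Ccl3 (83647843 to 83649378), so both windows share regions. The shared region at 83639450 to 83640732, 7.11 kb past the end of Ccl3, had scaled heights of 0.90, 0.875 and 0.696 in KO (0.824 ± 0.111) and 1.32, 1.19 and 0.862 in WT (1.12 ± 0.236; SD, n = 3 each). The groups overlapped (-0.43 ± 0.22, limma adjusted p = 0.103), and the value with shared-region scaling was -0.09 ± 0.21 (limma adjusted p = 0.888).

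The other regions at Ccl3 and Ccl4 were weak. A region at 83649391 to 83649634, 13 bp beyond the start of Ccl3, was called in WT replicate 4 alone, with 10 tags (0.370). The region at 83662274 to 83662789 inside Ccl4 was called in all 3 WT libraries (0.429, 0.296 and 0.379, that is 12, 8 and 11 tags) and in no KO library. At the KO depths its mean WT height would come to 6.19, 3.56 and 7.77 tags, again near the lowest peaks of those lists. Both regions called in all WT and no KO libraries, at Gzma and at Ccl4, were thus of this low height.

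Ccl5, the gene of the chemokine RANTES (chromosome 11, 83525778 to 83530518), had 2 regions. The one over its higher-coordinate end, at 83530362 to 83530721, was called in WT replicates 2 and 6 (0.679 and 0.552) and in no KO library. The one 3.57 kb beyond that end, at 83534085 to 83535307, was called in KO replicate 1 (0.70) and in all WT libraries (0.821, 0.704 and 0.690). The KO value lay within the WT range. At the depth of KO replicates 2 and 4, which did not call it, the mean WT height would come to 7.16 and 15.6 tags.

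**Figure D3:**
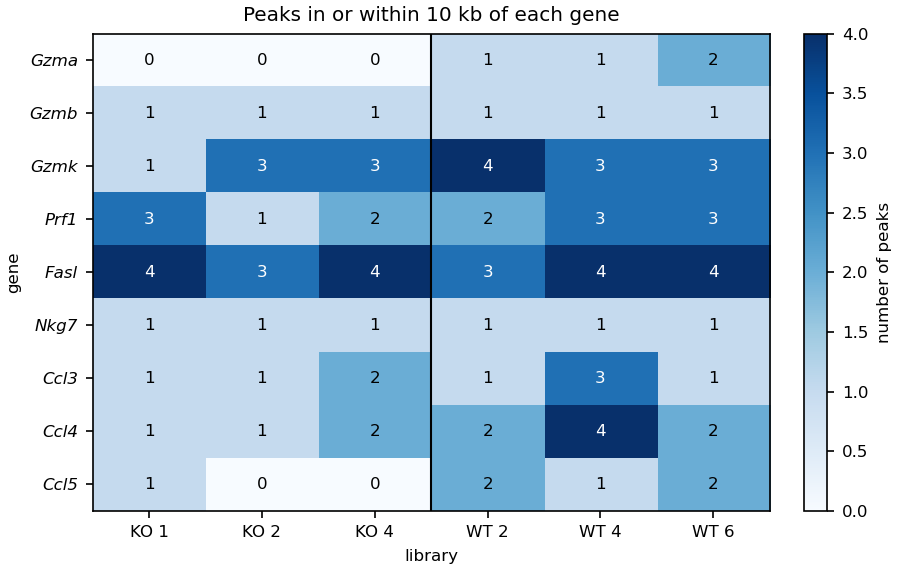
Number of peaks in or within 10 kb of each gene in each library, with KO libraries left of the line and WT libraries right of it. Gzma had 0 peaks in each KO library and 1, 1 and 2 in WT, while Gzmb and Nkg7 had 1 peak in all 6 libraries.

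Over the 9 genes, KO libraries held 12, 10 and 13 peaks and WT libraries 16, 18 and 18, each peak counted once. Per 10000 peaks of the library this was 2.83, 2.68 and 3.04 in KO (2.85 ± 0.181) and 3.0, 3.22 and 3.41 in WT (3.21 ± 0.205; SD, n = 3 each), and the groups overlapped. With lists cut to the 37266 most significant peaks of each library, the means were 10.7 peaks in KO and 11.3 in WT. Peaks at Fasl and at Gzmb did not differ in mean number (3.67 ± 0.577 and 1.0 ± 0 in both genotypes, SD, n = 3 each; exact permutation p = 1).

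**Figure D4:**
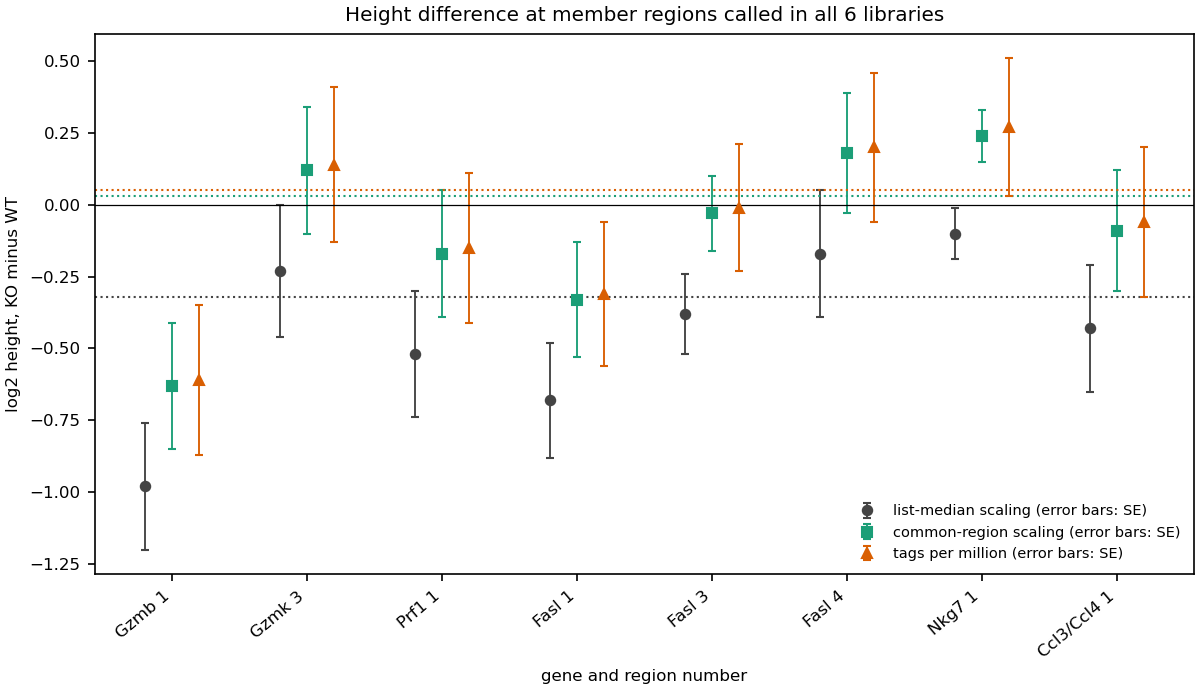
Difference in log2 height, KO minus WT, with SE, of the 8 regions called in all 6 libraries under 3 scalings (grey by list median, green by the median of shared regions, orange by tags per M tags). Dotted lines are the medians of all 29419 shared regions, at -0.32, 0.03 and 0.05. The Gzmb promoter lies lowest under each scaling, at -0.98, -0.63 and -0.61.

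Just outside the 10 kb limit were a region 10.5 kb from Ccl5 called in WT replicate 4 alone (0.333), and one 13.1 kb from Fasl at 161766517 to 161767620, taller than any Fasl region inside the limit (3.10, 3.25 and 3.17 in KO; 3.25, 2.96 and 3.24 in WT). Regions 13.3 kb from Gzmb (0.40, 0.562 and 0.565 in KO; 0.750, 0.370 and 0.724 in WT) and 13.4 kb from Nkg7 (1.35, 1.44 and 1.52 in KO; 1.5, 1.78 and 1.97 in WT) were also called in all 6 libraries. The farthest regions inside were the shared one of Ccl3 and Ccl4, at 7.11 and 7.89 kb, and the upstream region of Fasl at 5.97 kb.

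Other genes of the same pathways numbered 51, of which 39 had a region. Of their 85 regions called in all 6 libraries, 23 were lower and 0 higher in KO (27.1%, against 34.6% of all), their median difference was -0.34, and none was called with shared-region scaling (median 0.01). Among other granzyme genes, 4 of 7 had a region and 0 of 4 shared regions was called. For granule contents and secretion the count was 5 lower of 30, led by Ctsc, which encodes the protease that activates granzymes (-0.44 ± 0.11, limma adjusted p = 0.00375), and Rab27a, needed for granule release (-0.44 ± 0.12, limma adjusted p = 0.00558). With shared-region scaling both were at -0.10 (limma adjusted p = 0.703 for Ctsc and 0.725 for Rab27a). For death ligands and receptors it was 5 of 16, led by the TRAIL receptor gene Tnfrsf10b (-0.83 ± 0.19, limma adjusted p = 0.00246; with shared-region scaling -0.48, limma adjusted p = 0.144).

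Other chemokine ligand genes had regions at 7 of 16 genes and 2 of 5 shared regions lower, led by Ccl28 (-0.81 ± 0.21, limma adjusted p = 0.00448; with shared-region scaling -0.46, limma adjusted p = 0.216). Transcription factors of cytotoxic lymphocytes had 9 of 26 lower, led by Zeb2 (-0.96 ± 0.21, limma adjusted p = 0.00162) and Hopx (-0.60 ± 0.16, limma adjusted p = 0.00544). With shared-region scaling Hopx was at -0.25 (limma adjusted p = 0.427). The Zeb2 region at 45109840 to 45110528 on chromosome 2 reached 0.650, 0.688 and 0.913 in KO and 1.36, 1.44 and 1.52 in WT, and with shared-region scaling its difference was -0.61 ± 0.20 (limma adjusted p = 0.0896). The CD8 T and NK markers had 1 of 3 shared regions lower, beside 34.6% of all shared regions. It lay at Eomes (-0.64 ± 0.21, limma adjusted p = 0.0208; with shared-region scaling -0.29, limma adjusted p = 0.506). Another Eomes region was not called (-0.33, limma adjusted p = 0.0652). The Treg markers had 6 of 26 lower, the B cell markers 2 of 5, the myeloid markers 0 of 3 and the melanoma markers 0 of 5.

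Regions called in all WT and no KO libraries lay at 7 places near these 51 genes, 4.4% of their regions and close to the 4.66% of all regions. The tallest in WT lay near the chemokine gene Ccl25 (1.46, 1.81 and 1.45), near Fas, the receptor of Fas ligand (1.25, 1.22 and 1.07, chromosome 19, 34287229 to 34287533), and near Hopx (1.04, 1.15 and 1.24). Another lay near Prdm1, which encodes a transcription factor (0.964, 0.926 and 0.793). These 4 stood above the Gzma and Ccl4 regions in each WT library by scaled height.

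The tallest shared region of each gene was also set beside that of 14317 other protein-coding genes (14314 for Nkg7) by the root mean square difference of log2 scaled height over the 6 libraries, as a description. The nearest to Gzmb was a region near Sox10 at 0.127 (0.50, 0.750 and 0.739 in KO; 1.21, 1.19 and 1.07 in WT). The nearest to the Prf1 promoter lay near Zfp951 (0.107) and the nearest to the Fasl promoter near Jagn1 (0.0704). For the region in the Nkg7 window it was Mgat1 (0.0251), for the upstream region of Gzmk Fam110b (0.0990), and for the region shared by Ccl3 and Ccl4 Macc1 (0.114).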

How the data were processed

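Tregs of 3 KO and 3 WT libraries were grouped by their titles. Per the submitters' processing notes the build was mm10, with Bowtie2 2.3.1 and Picard 1.88. Per the file headers, the authors called peaks on each library alone with MACS 2.1.1.20160309, without a control, at a q-value of 0.05, with tags shifted by 100 bp, extended to 200 bp and kept once per position. The sources used here do not say whether tags were offset for Tn5. As deposited, pileup is a signal that carries each library's depth. The authors' fold enrichment is a ratio to local background, and their -log10 p-value and q-value, as deposited, give its significance. A deeper library can call weaker sites at the same q-value.

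Here peaks were merged where they shared at least 1 bp, a library's height in a region was its highest peak, and log2 scaled heights (pseudocount 0) of regions called in all 6 libraries were fitted with limma 3.58.1 (R 4.3.3) with an intensity trend. Requiring a call in all 6 leaves out sites that fell below the calling limit in any library. Tested on simulated data for this comparison, the fit recovered 64.5% of 200 planted changes of 1 (log2) among 29419 regions, with 8 false calls. The simulated heights held no difference between genotypes apart from the planted ones. The real heights under the first scaling were lower in KO nearly everywhere, so the false calls do not measure the error of the fit on them. Genes came from the RefSeq table of GRCm38.p6, and tables were made with Python 3.11.15, pandas 2.3.3, NumPy 2.4.6 and Matplotlib 3.10.9. The members, lists and tests were chosen with earlier results of these data known. All 9 members are named. Of the other list genes, up to 6 with the lowest adjusted p under 0.05 and up to 6 with the tallest region called in 1 genotype only are named. Results of 1 list that this rule would name are not reported here. Markers of B, myeloid and melanoma cells were counted too: their peaks summed to 6 to 9, 5 to 6 and 5 per KO and 11 to 14, 6 and 5 to 6 per WT library, with none at Ms4a1, Lyz2, Csf1r, Tyr and Dct.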

Additional observations from a re-analysis of the deposited data

How the results depend on the processing

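The number of height calls changed with the scaling and with other settings. The 3 regions lower in KO became 0 with shared-region scaling, with tags per M tags and with equal-length lists. With equal-length lists 0.058% of all regions tested were lower. The count was 1 with fold enrichment and 1 with summed heights, where 4.33% and 10.5% of all regions tested were lower. With a -log10 q-value of at least 5 it was 5, where 57.6% were lower. Windows of 200 bp around each summit gave 4 and a fit without the intensity trend gave 2, where 34.6% and 19.1% were lower. The median difference of -0.41 became -0.06, -0.04, -0.06 and -0.20 with shared-region scaling, tags per M tags, equal-length lists and fold enrichment. Over all regions tested the medians in these settings were 0.03, 0.05, 0.03 and -0.09. By scaling the upstream Fasl region turned to 0.18, 0.20 and 0.18 and the Gzmk one to 0.12, 0.14 and 0.12 (shared-region, tags per M tags, equal-length lists), and the Nkg7 window to 0.24, 0.27, 0.25 and, with fold enrichment, 0.02. The Gzmb promoter stayed below 0 in all settings run, from -1.12 to -0.60, and missed the threshold with shared-region scaling, tags per M tags and equal-length lists (limma adjusted p = 0.110, 0.999 and 0.152, over all settings 0.000333 to 0.999).

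Regions called in all WT and no KO libraries fell to 0 with the stricter threshold and with equal-length lists. The difference in peaks of -5.67 became -0.667 with equal-length lists and -3.33 with gene spans alone. Genes with fewer peaks in every KO library numbered 0 with the stricter threshold and with equal-length lists, and 2 with windows of 5 kb or none. How many of all regions and genes had these patterns in these settings was not counted, so the changes are not read as results about the members. Leaving out 1 library gave 1 to 4 height calls (1 without WT replicate 4) and medians of -0.47 to -0.33. Over all regions tested, 10.1% to 34.4% were then lower and the medians were -0.34 to -0.28. It also gave 2 to 4 regions called in all WT and no KO libraries (4 without KO replicate 1) and 0 called in all KO and no WT. Differences were -6.33 to -4.83 peaks. Genes with fewer peaks in every KO library numbered 1 to 2 (2 without KO replicate 1, KO replicate 4 or WT replicate 4). Both patterns are easier to meet with fewer libraries, and their shares of all regions and genes were not counted there. Without KO replicate 4 the upstream Fasl difference was 0.04.

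Replicate numbers 2 and 4 occur in both genotypes, but same-numbered libraries did not deviate together over the shared regions (correlations of -0.0208 and -0.0519), so the block is given only as an alternative, and the labels do not say what the numbers mark. A replicate block on these 4 libraries gave 3 calls and a median of -0.43, where 23.7% of all regions tested were lower and their median was -0.35. The cause of these changes was not tested.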
